A study of Schmidtea mediterranea with 6 samples.

Results

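The contigs described here are transcripts of the planarian *Schmidtea mediterranea* that the study's tables of predicted matrix and secreted proteins assign to the intestine. A contig is an assembled transcript, and the tables place each one in the single-cell atlas cluster where it was expressed most specifically. Of 765 contigs in those tables, 34 were assigned to the intestine and were not collagens. From these, 9 were set aside: 5 in the study's lists of selected genes (the laminin subunits, *sbspon* and dd_219 (CTSC)), 2 lysyl oxidase contigs and 2 single contigs, dd_58 (COLEC11) and a mucin-like contig, dd_651. The remaining 25 are described here, among 28742 contigs in the count table. The rule uses no value of these libraries, although it was written with earlier results of them known.

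The planarian intestine is a branched, blind-ended tube that serves both digestion and the delivery of nutrients through the body. Its absorptive cells, the phagocytes, engulf food particles and break them down inside the cell, which depends on lysosomal proteases such as cathepsins. Gland cells of the intestine, also called goblet cells, are thought to release digestive enzymes into the lumen. Secreted and lysosomal proteases are also counted as regulators in the matrisome, the predicted set of matrix proteins and their modifiers.

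RNA was sequenced from tails of asexual planarians of the strain CIW4 after RNAi. All animals ate liver mixed with dsRNA in 4 feedings over 13 days, either against *hmcn-1*, the gene of the extracellular matrix protein hemicentin-1, or against *unc-22*, a *C. elegans* sequence that planarians lack. There were 3 control and 3 *hmcn-1(RNAi)* libraries, each of poly(A) RNA from 5 pooled tails, so that p-values measure the spread between pools. Because whole tails were sequenced, fewer cells of a type and less RNA per cell cannot be told apart.

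Library totals lay between 6374450 and 11887127 reads, and levels are given as CPM, reads scaled to library totals adjusted with TMM factors. Levels of different contigs were not compared, since contig length was not used. The conditions were compared with the quasi-likelihood test of edgeR. A contig was called at an adjusted p under 0.05, after Benjamini-Hochberg (BH) adjustment over 15333 contigs. The contig of *hmcn-1* was at 205, 206 and 204 CPM in the control libraries and at 18.5, 18.5 and 16.7 CPM in the *hmcn-1(RNAi)* libraries, so that 8.71% of its level remained.

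Most of the 25 contigs encode digestive or secreted enzymes and secreted glycoproteins. Of these contigs, 17 belong to the predicted matrisome, with 8 core glycoproteins, 8 matrix regulators and 1 matrix-affiliated protein. The other 8 were placed outside the matrisome, 4 as transmembrane proteins and 4 for lack of a signal peptide. A signal peptide was predicted for 21 of the 25. The atlas cluster was number 30 for 18 contigs, number 6 for 3, number 19 for 2 and number 43 for 2. The clusters' specificity score exceeded 0.8 for 4 contigs, the cathepsins dd_48, dd_267 and dd_81 and the lipid transport contig dd_194. A name such as dd_48 stands for the contig dd_Smed_v6_48_0_1, and the gene symbol after it is the best human match or the tables' own name.

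Together the 25 contigs took between 1.94% and 2.31% of the TMM-scaled total of a library. Their summed level was 22369, 19433 and 20589 CPM in control and 22232, 23088 and 22539 CPM in *hmcn-1(RNAi)* libraries. The groups overlapped, as control replicate 1 was above *hmcn-1(RNAi)* replicate 1. The 4 contigs with a high specificity score supplied most of these reads, with a control mean of 13965 ± 1252 CPM (SD, n = 3) and an *hmcn-1(RNAi)* mean of 14714 ± 180.2 CPM (SD, n = 3). The other 21 contigs summed to 7208, 6769 and 6518 CPM in control and to 7643.5, 8454 and 7618.5 CPM in *hmcn-1(RNAi)* libraries, and here the groups did not overlap.

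Fold changes slightly above 0 prevailed among the intestine-assigned contigs, and few passed the test. The test covered 24 of the 25, each with at least 38 reads in every library. Only the contig dd_26067 (HGFAC), with 1 to 9 reads in a library, was too low to test. The fold change of *hmcn-1(RNAi)* over control on the log2 scale was above 0 for 20 of the 24 and below 0 for 4. Over all contigs tested, 50.0% were above 0. With 1 library left out, between 16 (without *hmcn-1(RNAi)* replicate 2) and 21 of the 24 were above 0. The 24 contigs were read in the same 6 libraries, so their fold changes are not independent of each other. Pearson correlations over these libraries ran from -0.830 to 0.969 among 276 pairs of contigs. The test called 2 contigs higher, *prss12* and dd_1144 (colipase), and none lower. Over all contigs tested, 1.13% were called and 0.515% were called higher, which is 173 and 79 contigs. An unadjusted p under 0.05 was found for 9 of the 24 and for 1690 of all 15333.

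The median log2 fold change of the 24 was 0.09, with quartiles at 0.02 and 0.19, against 0.0001 over all contigs tested. For 8 of the 24 (33.3%) all *hmcn-1(RNAi)* libraries lay above all controls, and 7.81% of all contigs tested did so. For 1 contig, dd_12877, they all lay below, as for 7.78% of all contigs. The groups overlapped for the other 15. The 4 contigs with a specificity score above 0.8 had a median log2 fold change of 0.05 and no call. The 20 other contigs tested had a median of 0.09 and held both calls. No test of the list was made.

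**Figure D1:**
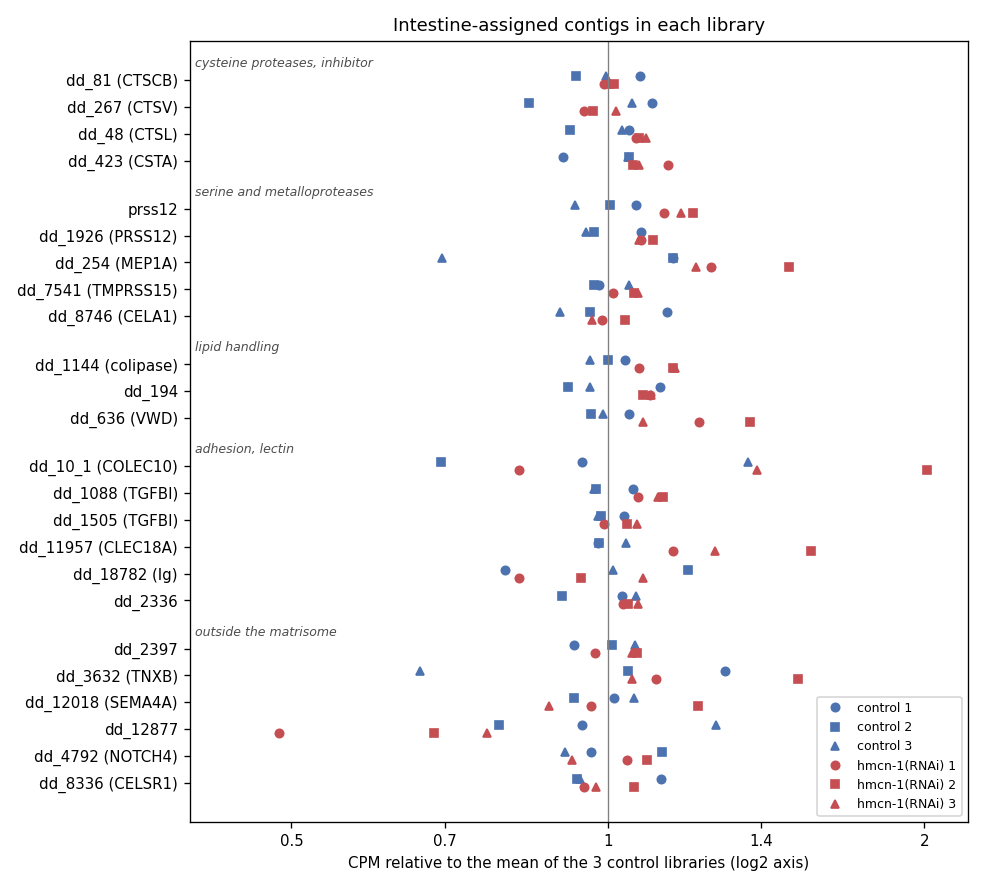
Level of each of the 24 tested contigs in every library, as CPM divided by the mean of the 3 control libraries, on a log2 axis. Circles, squares and triangles are replicates 1, 2 and 3, with control in blue and *hmcn-1(RNAi)* in red. Most contigs stay within a narrow band around 1, whereas dd_254, dd_10_1, dd_3632 and dd_12877 spread widely between libraries.

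The cysteine proteases are the enzymes with which phagocytes digest food in their lysosomes. Cathepsin L cleaves proteins inside lysosomes, and dd_48 (CTSL) was at 5263, 4619 and 5180.2 CPM in control and 5334, 5371 and 5458 CPM in *hmcn-1(RNAi)* libraries. The groups did not overlap, but control replicate 1 lay close to the lowest *hmcn-1(RNAi)* library. Its log2 fold change of 0.10 (SE 0.0391) did not pass the test (edgeR BH-adjusted p = 0.295).

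Cathepsin V is a close relative of cathepsin L in humans. For dd_267 (CTSV) the levels were 2727, 2083 and 2609.6 CPM in control and 2349, 2392 and 2516 CPM in *hmcn-1(RNAi)* libraries. All *hmcn-1(RNAi)* libraries fell inside the control range, with a log2 fold change of -0.03 (SE 0.119). Cathepsin B, the match of dd_81, is a lysosomal protease too. This contig, dd_81 (CTSCB) in the tables, had a control mean of 1817 ± 127 CPM (SD, n = 3) and an RNAi mean of 1824 ± 19.5 CPM (SD, n = 3), with a log2 fold change of 0.01 (SE 0.0401). The encoded proteins of dd_48 and dd_267 were identical at 71.4% of 332 aligned residues, so their counts may share reads. Another related contig in the tables, dd_175 (CTSV), is not a member and matched dd_267 at 69.2%.

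Cystatin A inhibits cysteine proteases such as cathepsins inside cells. Its match dd_423 (CSTA), which lacks a signal peptide, was at 93.1, 108 and 107 CPM in control and 117, 108 and 109.9 CPM in *hmcn-1(RNAi)* libraries. The groups touched without overlapping, and the log2 fold change of 0.12 (SE 0.0567) was not called (edgeR BH-adjusted p = 0.436). Of these 4 contigs 3 had a fold change above 0, none was called, and the median log2 fold change was 0.05. The tables hold 23 more cathepsin-type contigs that are not members. Of these, 13 could be tested, 9 with a fold change above 0 and 4 below, none was called, and their median log2 fold change was 0.07.

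Among the 5 serine proteases and metalloproteases the median log2 fold change was 0.12, and 1 was called. For 4 of them the fitted fold change was above 0 by at least 0.06 (log2), and for dd_8746 (CELA1) it was near 0 with a sign that changed under 4 alternatives. The called contig was *prss12* (dd_790), named for human PRSS12, a secreted trypsin-like protease also known as neurotrypsin. *prss12* was at 1442, 1362 and 1260.3 CPM in control and at 1532, 1631 and 1591 CPM in *hmcn-1(RNAi)* libraries. Every *hmcn-1(RNAi)* library exceeded every control library, and the mean was 1354 ± 90.9 CPM (SD, n = 3) against 1585 ± 49.8 CPM (SD, n = 3). *prss12* rose by 17.0%, a log2 fold change of 0.23 (SE 0.0416, edgeR BH-adjusted p = 0.00315). The call was kept in 13 of 14 alternative fits and was lost without control replicate 3, the lowest control, where the log2 fold change was 0.18 (edgeR BH-adjusted p = 0.0829).

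The closest relative of *prss12* in the tables is dd_1926 (PRSS12), whose protein was identical at 55.6% of 396 aligned residues. It was at 362, 327 and 321 CPM in control and at 362, 371 and 360.4 CPM in *hmcn-1(RNAi)* libraries. Control replicate 1 reached the *hmcn-1(RNAi)* level while the other controls were lower, and the log2 fold change of 0.12 (SE 0.0440) was not called (edgeR BH-adjusted p = 0.276). Without control replicate 1 it was called at 0.17 (edgeR BH-adjusted p = 0.0196). The ratio of dd_1926 to *prss12* reads was 0.251, 0.240 and 0.255 in control and 0.236, 0.228 and 0.227 in *hmcn-1(RNAi)* libraries. The ratio was thus lower in each *hmcn-1(RNAi)* library than in each control, although no test of the ratio was made. It is not a separate result, since *prss12* itself was higher in every *hmcn-1(RNAi)* library.

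Meprin A, the match of dd_254 (MEP1A), is a metalloprotease of the astacin family that is found on the gut lining in mammals. The contig was at 559, 559 and 337 CPM in control and 608, 722 and 589 CPM in *hmcn-1(RNAi)* libraries. The groups did not overlap, but control replicate 3 stood far below the other controls. Its log2 fold change of 0.40 carried an SE of 0.246 and was not called (edgeR BH-adjusted p = 0.673), and it ranged from 0.19 without control replicate 3 to 0.52 without control replicate 2.

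Human TMPRSS15 is enteropeptidase, which activates trypsinogen in the gut, and CELA1 is an elastase. The contig dd_7541 (TMPRSS15) was at 30.8, 30.5 and 32.9 CPM in control and 31.7, 33.2 and 33.5 CPM in *hmcn-1(RNAi)* libraries. The contig dd_8746 (CELA1) was at 31.6, 26.7 and 24.98 CPM in control and 27.4, 28.8 and 26.8 CPM in *hmcn-1(RNAi)* libraries. Both overlapped between groups, with log2 fold changes of 0.06 (SE 0.0801) and 0.004 (SE 0.0910). Summed over the 5 proteases the level was 2425.5, 2305 and 1976.5 CPM in control and 2561, 2787 and 2601 CPM in *hmcn-1(RNAi)* libraries, without overlap. Most of this sum came from *prss12*. Among the roles described here, the sum was also separate between groups for lipid handling. It overlapped for the cysteine proteases with their inhibitor, for adhesion proteins and lectins, and for the contigs outside the matrisome other than the cystatin. Of the 7 serine peptidase contigs of the tables that are not members, 5 were tested. Among these, 1 had a fold change above 0 and 4 below, with a median log2 fold change of -0.11 and no call, and a difference from the members was not tested.

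**Figure D2:**
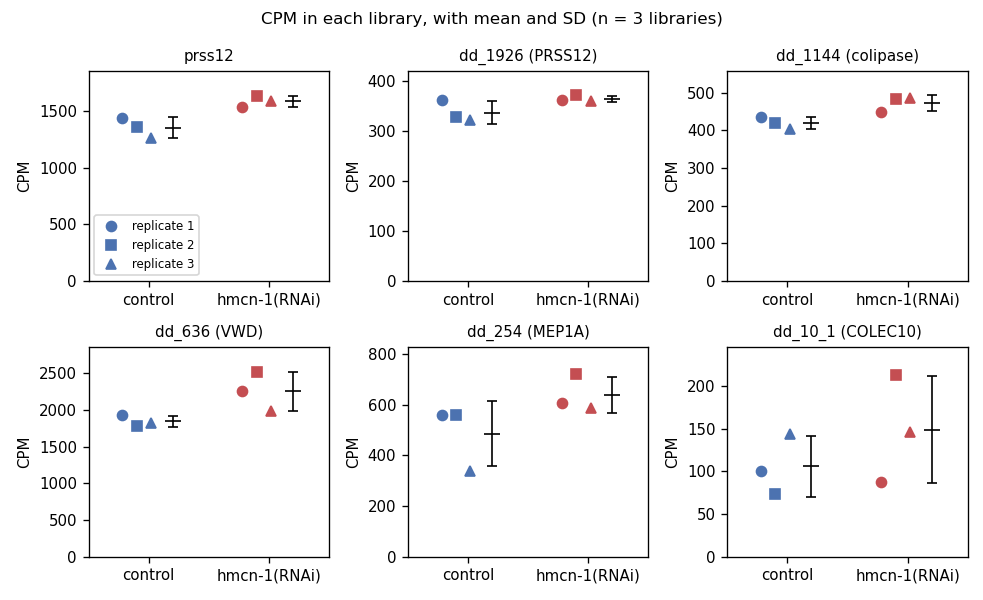
CPM of 6 contigs in each library on axes that start at 0, with replicates 1, 2 and 3 as circles, squares and triangles and the mean with SD beside each group. The groups are separate for *prss12*, dd_1144, dd_636 and dd_254, and overlap for dd_1926 and dd_10_1.

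The contigs of lipid handling all had a log2 fold change above 0, from 0.13 to 0.29, and 1 of 3 was called. Colipase is a cofactor of pancreatic lipase in mammals, and the tables give this name to dd_1144, although its best human match is TNXB, a tenascin. The contig dd_1144 (colipase) was at 435, 419 and 403 CPM in control and at 448, 483 and 486 CPM in *hmcn-1(RNAi)* libraries. All *hmcn-1(RNAi)* libraries were above all controls, with means of 419 ± 15.7 CPM (SD, n = 3) and 472 ± 20.9 CPM (SD, n = 3). The contig rose by 12.8%, a log2 fold change of 0.17 (SE 0.0421, edgeR BH-adjusted p = 0.0296). This call was kept in 8 of 14 alternative fits. Among the fits with 1 library left out it was lost in 4, those without *hmcn-1(RNAi)* replicate 2 or 3 and without control replicate 2 or 3, where the fold change stayed at 0.14 or more (log2) and the edgeR BH-adjusted p reached 0.249. It was also lost in limma-voom and in DESeq2 without independent filtering.

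Large lipid transfer proteins carry lipids between tissues and often end in a von Willebrand factor D (VWD) domain. The tables mark dd_194 and dd_636 (VWD) as lipid transport contigs with this domain. The contig dd_636 (VWD) was at 1929.5, 1778 and 1825 CPM in control and 2251, 2519 and 1990.5 CPM in *hmcn-1(RNAi)* libraries. The lowest *hmcn-1(RNAi)* library, replicate 3, was just above control replicate 1, and the *hmcn-1(RNAi)* libraries differed more among themselves than the controls did. The log2 fold change of dd_636 was 0.29 (SE 0.0989) and was not called (edgeR BH-adjusted p = 0.410). Without *hmcn-1(RNAi)* replicate 3 it was called at 0.37 (edgeR BH-adjusted p = 3.05e-05), and without *hmcn-1(RNAi)* replicate 2 at 0.20 (edgeR BH-adjusted p = 0.0357).

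The contig dd_194 was at 5223, 4268 and 4472 CPM in control and at 5102, 5029 and 5121 CPM in *hmcn-1(RNAi)* libraries. Here control replicate 1 was the highest of all libraries and the other controls were the lowest. At 0.13 (SE 0.0803), its log2 fold change was not called (edgeR BH-adjusted p = 0.669), whereas without control replicate 1 it was 0.22 (edgeR BH-adjusted p = 3.3e-05). It was 0.07 without control replicate 2 (edgeR BH-adjusted p = 0.791) and 0.10 without control replicate 3 (edgeR BH-adjusted p = 0.787).

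Adhesion proteins and lectins assigned to the intestine gave 5 fold changes above 0 and 1 below, with a median log2 fold change of 0.11 and no call. Human TGFBI is an adhesion protein with fasciclin domains that binds collagen. The contig dd_1088 (TGFBI) was at 842, 776 and 774 CPM in control and at 852, 901 and 891 CPM in *hmcn-1(RNAi)* libraries. The groups did not overlap, and its log2 fold change of 0.14 (SE 0.0398) was the nearest to the threshold among contigs not called (edgeR BH-adjusted p = 0.0665). It was called without control replicate 1, where the edgeR BH-adjusted p was 0.00329.

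The second contig of this family, dd_1505 (TGFBI), shares 33.5% of 379 aligned residues with dd_1088. It was at 866, 824 and 818 CPM in control and 829, 872 and 891 CPM in *hmcn-1(RNAi)* libraries, with a log2 fold change of 0.05 (SE 0.0389). Its groups overlapped, since *hmcn-1(RNAi)* replicate 1 was among the controls. The ratio of dd_1505 to dd_1088 reads was 1.03, 1.06 and 1.06 in control and 0.973, 0.968 and 1.00 in *hmcn-1(RNAi)* libraries. As for the PRSS12 pair, the ratios of the groups did not overlap, and no test was made. Here too the denominator, dd_1088, was itself higher in every *hmcn-1(RNAi)* library. Ratios were also taken for dd_267 to dd_48 and for dd_636 to dd_194, and there the groups overlapped.

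C-type lectins bind sugars. The contig dd_11957 (CLEC18A) was at 9.83, 9.84 and 10.4 CPM in control and 11.6, 15.6 and 12.7 CPM in *hmcn-1(RNAi)* libraries. All *hmcn-1(RNAi)* libraries were higher, but at 61 to 150 reads in a library the log2 fold change of 0.40 (SE 0.133) was not called (edgeR BH-adjusted p = 0.178). The tables give the same protein to a further contig, dd_12641, so reads of this gene may be split between both. That contig had only 12 to 20 reads in a library and overlapped between groups, with a log2 fold change of -0.14 (SE 0.333).

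Collectins are lectins with a collagen-like stretch. The contig dd_10_1 (COLEC10) was at 99.9, 73.3 and 144 CPM in control and 86.9, 213 and 147 CPM in *hmcn-1(RNAi)* libraries. The highest library of each group was about double the lowest or more, by a factor of 1.96 among controls and 2.45 among *hmcn-1(RNAi)* libraries. Its log2 fold change was 0.49, with the largest error of the 24 contigs (SE 0.452, edgeR BH-adjusted p = 0.786). With 1 library left out it lay between 0.15 (without *hmcn-1(RNAi)* replicate 2) and 0.79 (without control replicate 3). The identity of this contig is uncertain, since the tables' own link for it leads to another contig of the same number, dd_10_0. That contig stayed between 1464 and 1609 CPM in all libraries, with a log2 fold change of 0.05 (SE 0.0376).

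A pair of contigs encodes proteins with immunoglobulin repeats, the fold that also makes up most of hemicentin. For dd_2336, whose best human match is HMCN1 itself, the levels were 137, 120.3 and 142 CPM in control and 137, 139 and 142 CPM in *hmcn-1(RNAi)* libraries. This contig is not the RNAi target, its groups overlapped, and its log2 fold change was 0.07 (SE 0.0537). The nephrin-like contig dd_18782 (Ig) had 38 to 98 reads in a library. Its level was 6.12 to 9.14 CPM in control and 6.32 to 8.29 CPM in *hmcn-1(RNAi)* libraries, with a log2 fold change of -0.08 (SE 0.164).

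Apart from the cystatin, 7 contigs were placed outside the matrisome. Over the 6 tested the median log2 fold change was 0.02, with 4 above 0, 2 below and no call. The transmembrane contig dd_12877, without a named human match, was the one intestine-assigned contig that was lower in every *hmcn-1(RNAi)* library. It was at 8.86, 7.38 and 11.9 CPM in control and at 4.56, 6.40 and 7.19 CPM in *hmcn-1(RNAi)* libraries. The groups were separated by less than the spread within either, and the counts were 39 to 98 reads. The log2 fold change of -0.61 (SE 0.185) was not called (edgeR BH-adjusted p = 0.134). Without control replicate 2 it was called at -0.77 (edgeR BH-adjusted p = 0.0485). It was -0.39 without control replicate 3 (edgeR BH-adjusted p = 0.572) and -0.46 without *hmcn-1(RNAi)* replicate 1 (edgeR BH-adjusted p = 0.432).

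Tenascin X is a matrix glycoprotein, and dd_3632 (TNXB), which lacks a signal peptide, was matched to it. It was at 129.99, 105 and 66.6 CPM in control and 112, 153 and 106 CPM in *hmcn-1(RNAi)* libraries, with a log2 fold change of 0.30 (SE 0.311). This value became 0.07 when control replicate 3 was left out and 0.52 when control replicate 1 was, and 0.12 in the absence of *hmcn-1(RNAi)* replicate 2. Control replicate 3 was its lowest library and *hmcn-1(RNAi)* replicate 2 its highest, as for dd_254.

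The remaining contigs of this class overlapped between groups. Semaphorins are guidance cues, and dd_12018 (SEMA4A) was at 29.0 to 33.1 CPM in control and 27.5 to 38.2 CPM in *hmcn-1(RNAi)* libraries. NOTCH4 is a receptor with EGF repeats, and CELSR1 an adhesion receptor of the cadherin family. For dd_4792 (NOTCH4) and dd_8336 (CELSR1) the log2 fold changes were 0.02 (SE 0.0774) and -0.0002 (SE 0.0817). The contig dd_2397, with a von Willebrand factor A domain, was at 97.9 to 112 CPM in control and 103 to 112 CPM in *hmcn-1(RNAi)* libraries, with a log2 fold change of 0.04 (SE 0.0557). The untested dd_26067 (HGFAC) had a kringle domain and resembled the activator of hepatocyte growth factor.

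**Figure D3:**
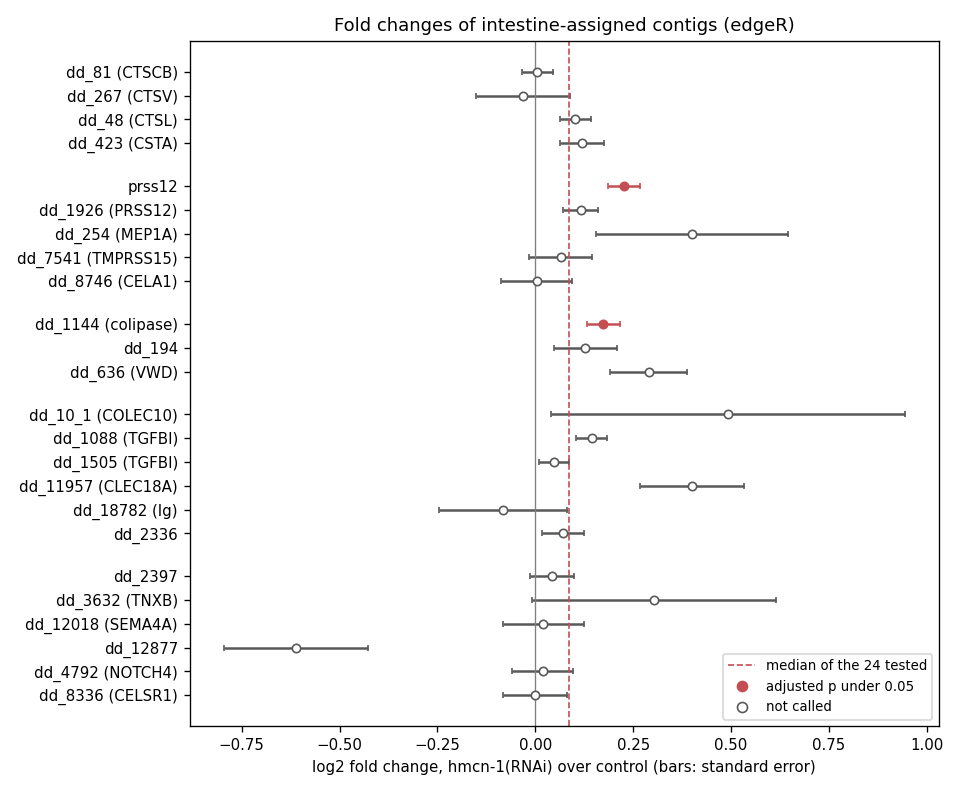
Log2 fold change of *hmcn-1(RNAi)* over control for the 24 tested contigs, with standard errors from edgeR, in the order of the roles above. Filled red points are the called contigs *prss12* and dd_1144, open points were not called, and the dashed line is the median of 0.09.

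Both called contigs, *prss12* and dd_1144, were assigned to atlas cluster 6, as was dd_7541. None of the 18 contigs of cluster 30 was called, where 1.13% of all contigs tested were called. At that share a list of this size need not hold a call. In cluster 30, 14 contigs had a fold change above 0, with a median log2 fold change of 0.09. The median was 0.27 for the pair of cluster 19, dd_10_1 and dd_2397, and 0.02 for the tested contig of cluster 43. A difference between clusters was not tested. Contigs with a mean of at least 1000 reads in a library had a fold change above 0 in 12 of 13, with a median of 0.13. With at least 100 and under 1000 reads it was above 0 in 8 of 9, with a median of 0.04. Both contigs with fewer reads that could be tested were below 0.

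Single libraries weighed on these values. Control replicate 1 was the highest control for 13 of the 24 contigs, and control replicate 2 the lowest for 11. Among *hmcn-1(RNAi)* libraries, replicate 1 was the lowest for 15 and replicate 2 the highest for 14. The number of contigs called higher was 5 without control replicate 1, 1 without control replicate 2 and 0 without control replicate 3. It was 2 without each *hmcn-1(RNAi)* replicate in turn. In addition, 1 contig was called lower without control replicate 2. Over all contigs tested, the share called in either direction was 1.63%, 0.767% and 0.479% without control replicates 1, 2 and 3. It was 0.562%, 1.02% and 0.581% without *hmcn-1(RNAi)* replicates 1, 2 and 3, against 1.13% with all libraries. Leaving out control replicate 3 also lowered the number of calls over all contigs, from 173 to 75, and it was 88 and 91 without *hmcn-1(RNAi)* replicates 1 and 3. The median log2 fold change of the intestine-assigned contigs stayed between 0.07 and 0.11 with each library left out in turn. Between control libraries the coefficient of variation of the contigs with at least 100 reads was 6.98% in the median, against 5.65% for all 9050 contigs at that depth, and 3 of these 22 exceeded 20%.

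Genes of the intestinal lineage were read in every library. The study used *hnf4*, *prox-1* and *gata4/5/6* as probes for stem cells (neoblasts) of the intestinal lineage. Their levels need not follow the amount of differentiated intestine. *hnf4*, a transcription factor of the intestinal lineage, was at 306 to 346 CPM in control and 288 to 319 CPM in *hmcn-1(RNAi)* libraries, with a log2 fold change of -0.07 (SE 0.0477). *gata4/5/6*, another intestinal transcription factor, was at 133, 127 and 132 CPM in control and 109, 126 and 108 CPM in *hmcn-1(RNAi)* libraries. Its log2 fold change of -0.19 (SE 0.0550) was opposite in sign to that of most intestine-assigned contigs and was not called (edgeR BH-adjusted p = 0.0788). *prox-1*, the third lineage gene, had a log2 fold change of -0.02. Together these lineage genes summed to 445 to 491 CPM in control and 427 to 439 CPM in *hmcn-1(RNAi)* libraries.

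Markers of other tissues were read in the same fit. Over all 15333 contigs tested, 7663 had a fold change below 0 and 94 were called lower. All 7 muscle markers had a fold change below 0, and dd_323, dd_333, dd_432 and dd_436 were called lower. Their summed level was 8995 to 9550 CPM in control and 7965 to 8213 CPM in *hmcn-1(RNAi)* libraries. Both cathepsin+ cell markers had a fold change above 0 and were not called, at a summed 60.3 to 71.5 CPM in control and 74.2 to 81.5 CPM in *hmcn-1(RNAi)* libraries. Fold changes were above 0 for 1 of 4 neural, 3 of 5 parenchymal and 0 of 2 epidermal lineage markers, and *ChAT* and *prog-2* were called lower. All of these markers had enough reads to be tested. Their part in the values of the intestine-assigned contigs was not tested.

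Contigs of the same tables assigned to other tissues were set beside the intestine. Over all contigs tested, 50.0% had a fold change above 0 and 1.13% were called. The 9 intestine-assigned contigs that had been set aside had 8 fold changes above 0 and a median log2 fold change of 0.15. The lysyl oxidase contig dd_7096 (LOXL2) was called higher. Of 67 tested contigs of cathepsin+ cells, a planarian cell class that takes up particles, 49 were above 0, with a median of 0.08 and no call. Of 37 pharynx-assigned contigs 15 were above 0 (median -0.03, no call). Of 35 muscle-assigned contigs without collagens 12 were above 0 (median -0.10), and dd_4789 was called lower. Differences between these lists were not tested.

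**Figure D4:**
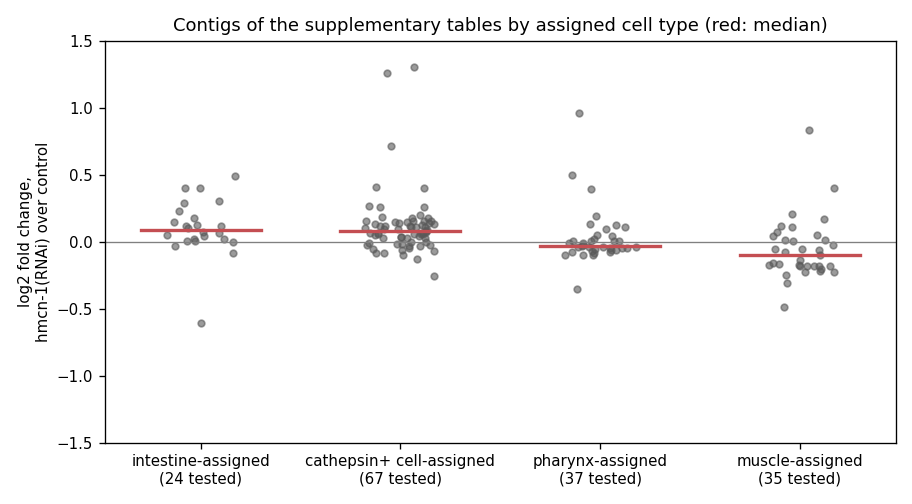
Log2 fold change of *hmcn-1(RNAi)* over control for tested contigs of the same tables by assigned cell type, each point a contig and each red line a median. The medians are 0.09 for intestine, 0.08 for cathepsin+ cells, -0.03 for pharynx and -0.10 for muscle, and the spreads of the lists overlap.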

How the data were processed

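Tails of 3 control and 3 *hmcn-1(RNAi)* pools were compared. The authors mapped reads with Bowtie 1.2.2 and its -best option to the dd_Smed_v6 transcriptome and deposited raw counts summed per contig, without normalization. Their deposited DESeq2 comparison, which holds fold changes and p-values, was not used. Groups and replicate numbers follow the sample labels.

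Contigs were chosen by cell type and category in the study's tables of predicted matrix and secreted proteins, and contig numbers were carried from v4 to v6. Roles were grouped from the tables' domains, names and best human matches. The members, roles, lists and tests were chosen with earlier results of these data known. Every member was named.

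Counts were filtered with filterByExpr (minimum count of 10), scaled with TMM factors (0.977 to 1.02) and tested in edgeR 4.0.16 (R 4.3.3) with a robust quasi-likelihood fit on condition, with Benjamini-Hochberg adjustment over 15333 contigs. The SE is the log2 fold change divided by the square root of F. The fit was tested on simulated data. All 15 library pairs differed beyond counting noise (chi-square per degree of freedom of 2.07 to 7.98). Proteins were aligned in Biopython 1.88 over the stretches the tables hold. The sources used here do not state whether counting used the strand or, beyond the -best option, how reads matching several contigs equally well were treated. Alternatives were other scalings, filters and thresholds, DESeq2 1.42.0, limma-voom 3.58.1, a replicate term and each library left out.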

Additional observations from a re-analysis of the deposited data

How the results depend on the processing

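The median log2 fold change of the intestine-assigned contigs stayed between 0.07 and 0.11 under all 14 alternatives run for it. Over all contigs, the number called (173) was 339 without a filter, 111 with DESeq2, 66 with DESeq2 without independent filtering, 73 with limma-voom, 76 and 278 at adjusted p under 0.01 and 0.10, and 75 to 255 with 1 library left out. Intestine-assigned contigs called higher (2) and lower (0) numbered 6 and 1 without a filter. The added contigs were dd_48 (CTSL), dd_194, dd_636 (VWD) and dd_1088 (TGFBI), higher, and dd_12877, lower. The number higher was 1 with limma-voom, with DESeq2 without independent filtering and at 0.01, and 0 to 5 with 1 library left out, and the number lower was then 0 to 1. With the replicate number as a block, 292 contigs were called in all, 3 intestine-assigned contigs higher (dd_1088 (TGFBI) was added) and 1, dd_12877, lower. Same-numbered libraries correlated at 0.0014, 0.225 and 0.0520 in their deviations from the group means. Control replicate 1 correlated best with another number, and control replicates 2 and 3 with their own. With 3 libraries in a group, these correlations cannot decide whether the numbers pair the samples. The report uses no block.

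Fold changes near 0 changed sign. dd_8336 (CELSR1) was at 0.0054 without a filter, 0.000148 at 100 counts, 0.0067 in limma-voom, 0.0018 with the block and -0.0456 to 0.0822 with 1 library left out. dd_8746 (CELA1) was at -0.0027 with upper-quartile factors and -0.0683 to 0.0948 on leaving out libraries. The leave-out ranges were -0.0419 to 0.0584 for dd_81 (CTSCB), -0.141 to 0.0443 for dd_267 (CTSV), -0.201 to 0.0657 for dd_18782 (Ig), -0.00584 to 0.0858 for dd_2397, -0.12 to 0.13 for dd_12018 (SEMA4A) and -0.0508 to 0.119 for dd_4792 (NOTCH4). The cause of these changes was not tested. Contigs under 100 reads in a library, such as dd_12877 and dd_18782 (Ig), had the largest relative counting error, and small changes there were not detectable at this depth.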
